A study of Polistes dominula with 96 samples.

Results

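LOC107067849 is a gene of the paper wasp *Polistes dominula* that the study's annotation names collagen alpha-5(IV) chain-like. It was taken as 1 row of a table of 11140 genes and was chosen by its level against the age of workers in these libraries, so that its relation to age is described here without a test. Collagen IV is the network-forming collagen of basement membranes, the thin sheets of matrix that underlie epithelia and wrap nerves, muscles and, in insects, the outside of the brain. Its chains are folded as trimers in the endoplasmic reticulum, where prolyl and lysyl hydroxylases modify them, and they are secreted and cross-linked next to laminin, nidogen and perlecan. In *Drosophila* the chains are encoded by a pair of neighbouring genes, Col4a1 and viking, and much of the protein is made by fat body and blood cells. In the reference gene table of *P. dominula* the gene next to LOC107067849 is likewise a collagen IV gene, Col4a1 (LOC107067848), annotated as collagen alpha-1(IV) chain.

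RNA was sequenced from the brains of 96 females kept in laboratory nests, with 1 library for each wasp. They were 26 foundress queens, 12 workers of nests that kept their queen (control workers), and 58 individuals of nests from which the queen had been taken, sampled 3 days (24 wasps of 8 nests) or 12 days (34 wasps of 10 nests) after the removal. No genotype or agent was given. Control nests had a sham removal in place of the loss of the queen. Of their wasps, 7 workers and 9 queens belonged to nests followed for 3 days after it. The other 5 workers and 5 queens belonged to nests followed for 12 days. Control wasps were not split by these days here. Control workers were 1 to 23 days old (median 11.5), wasps of day 3 were 3 to 33 days old (median 13) and those of day 12 were 3 to 28 days old (median 18.5), while queens, which had emerged in the previous year, have no age in the labels. A wasp of day 12 younger than 12 days emerged after the queen was gone. Queens came from 14 control nests and from 12 queen removal nests, and the labels do not give the day on which removed queens were sampled. Wasps of one nest are not independent of each other. One 3-day-old wasp of day 3 is named for nest 28 but was listed by the study under nest 38, where she was placed here.

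Libraries held 7933671 to 18124755 counts, and LOC107067849 had at least 1095 counts in each of them, so counting error was small beside the differences between wasps. Levels are given in CPM, counts scaled to the size of the library, after edgeR's TMM scaling, which evens out library composition, and they were not divided by gene length. RNA of marker genes of other tissues varied widely. Over the 96 libraries the summed level of 12 muscle markers ran from 1774 to 55296 CPM and that of 9 photoreceptor markers from 196 to 31418 CPM, whereas 5 neuron markers summed to 761 to 1812 CPM and had no library at 0. In bulk tissue, fewer cells that make a transcript and less transcript per cell cannot be told apart.

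The youngest workers had by far the most LOC107067849 RNA. In control workers the level was 1205 CPM at 1 day of age, 1642 CPM at 2 days, 1217 CPM at 3 days, 641 CPM at 7 days, 414 CPM at 9 days and 542 CPM at 10 days. It was 286 CPM at 13 days, 196 and 323 CPM in the pair of wasps aged 16 days, 447 CPM at 17 days, 191 CPM at 20 days and 184 CPM at 23 days. The 3 wasps aged 3 days or less all stood above the other 9, and the oldest had the lowest value. In edgeR's fit the slope was -1.39 on the log2 scale per 10 days of age (SE 0.16, n = 12), or 0.381 times the level for each 10 days. Without the 3 youngest workers it was -1.04 (SE 0.25).

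The same order of levels by age appeared at both times after queen removal, with slopes nearer to 0. At day 3 the wasps aged 3 days stood at 902, 997 and 1328 CPM, the median of the 24 wasps was 407 CPM and the oldest wasp, at 33 days, had the lowest value, 168 CPM. The slope was -0.70 per 10 days (SE 0.10, n = 24), and without the wasp named for another nest, who had the 1328 CPM, it was -0.64 (SE 0.10). At day 12 the only wasp aged 3 days stood at 1030 CPM, all others lay between 167 and 662 CPM, and the oldest, at 28 days, had the lowest value. The slope was -0.60 (SE 0.14, n = 34), and -0.45 (SE 0.17) without the 3-day-old wasp. Slopes with nest as a block were -0.79 (SE 0.16) at day 3 and -0.51 (SE 0.19) at day 12. Because the control workers included younger wasps, the slopes of the 3 groups cover different ages.

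**Figure D1:**
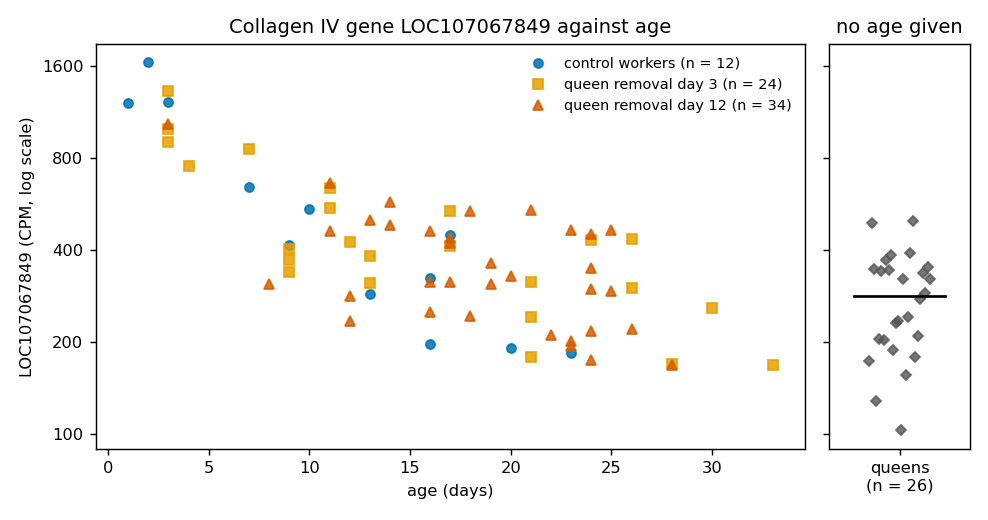
Level of LOC107067849 (CPM, log scale) against age in days, with each point 1 wasp, for control workers, queen removal day 3 and queen removal day 12; the right panel shows the 26 queens, whose ages are not given, with their median as a line. The 7 workers aged 3 days or less lie between 902 and 1642 CPM, all above the highest queen at 495 CPM.

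Taken over all 70 workers, the level differed more steeply with age among the youngest wasps. Each wasp was sampled once, so a fall with age here means lower levels in older wasps. Age and time of emergence cannot be told apart within a nest. The 8 workers aged 1 to 5 days had 750 to 1642 CPM (median 1117 CPM), and the 8 aged 6 to 10 days had 308 to 856 CPM (median 408 CPM). Medians were 459 CPM at 11 to 15 days (13 wasps), 328 CPM at 16 to 20 days (17 wasps), 292 CPM at 21 to 25 days (17 wasps) and 220 CPM at 26 to 33 days (7 wasps). The range of each class overlapped that of the next, and the median of 11 to 15 days was above that of 6 to 10 days. A least-squares line through log2 CPM had a slope of -2.24 per 10 days (SE 0.30) in the 16 workers aged 10 days or less and -0.53 (SE 0.12) in the 54 older ones. Age accounted for 56% of the variance of log2 CPM over all workers and for 26.3% in those aged over 10 days.

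Wasps of one nest shared housing and colony history, so the level was also compared within queen removal nests. Among pairs of nestmates of unequal age, the older wasp had the lower level in 17 of 28 pairs at day 3 and in 26 of 42 pairs at day 12. When the ages were 10 days or more apart it did so in 15 of 17 pairs, against 28 of 53 pairs with a smaller gap. In nest 38 the 3-day-old wasp, the one of uncertain nest, stood at 1328 CPM and the 33-day-old at 168 CPM. In nest 45 the 3-day-old had 1030 CPM and the 16-day-old 249 CPM. The oldest wasp was below the youngest in 3 of 6 nests at day 3 and in 7 of 8 at day 12, with ages tied at either end averaged. The 4 nests of the opposite order were 47, 51, 65 and 71. In nest 47 the level was 179 CPM at 21 days of age and 257 CPM at 30 days, and in nest 51 the older wasp was lower in 1 of 5 pairs. Nest 65 had 308 CPM at 8 days of age and 541 CPM at 21 days, and in nest 71 the wasp aged 13 days (310 CPM) was below both of her 17-day-old nestmates.

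**Figure D2:**
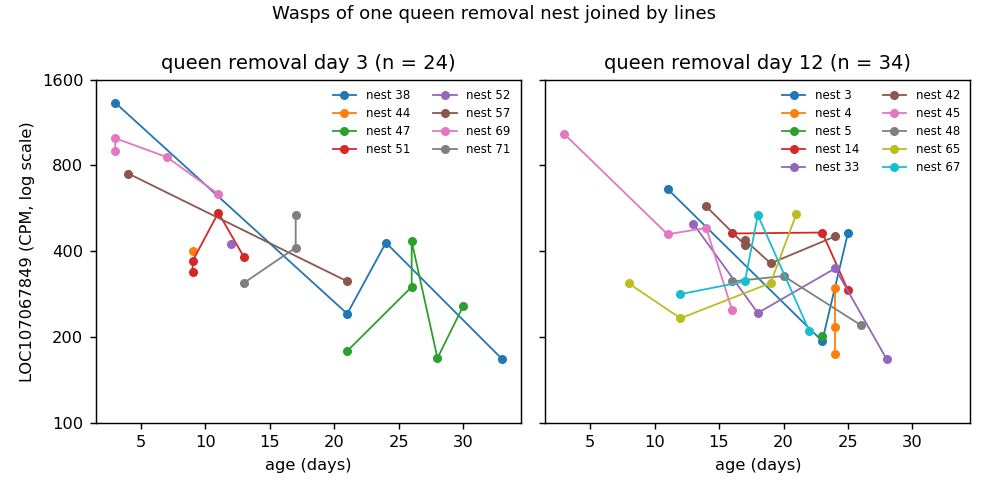
Level of LOC107067849 (CPM, log scale) against age in days in queen removal nests at day 3 (left) and day 12 (right); each point is 1 wasp and lines join the wasps of one nest in order of age. The lines that start at 3 or 4 days of age begin highest, and lines among older wasps cross, with 541 CPM in the oldest wasp of nest 65.

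Queens had lower levels than control workers as a group. They had 102 to 495 CPM (median 282 CPM, mean 281 ± 104 CPM, SD, n = 26), control workers 184 to 1642 CPM (median 431 CPM, mean 607 ± 484 CPM, SD, n = 12), and the groups overlapped. LOC107067849 was higher in control workers than in queens by 1.11 on the log2 scale (SE 0.25, 2.16-fold, adjusted p = 0.000409, edgeR quasi-likelihood F test, adjusted after Benjamini and Hochberg over all genes), in a comparison in which 22.8% of 10794 genes were called. The difference was 1.75 (SE 0.27) with control workers aged 10 days or less, an age limit set after the data were seen and given without a test, since level by age chose the gene. With those aged 13 days or more it turned to -0.060 (SE 0.30, 95% interval -0.65 to 0.53), also given without a test for that reason. The p-value of the whole groups rests on the same control workers, so it is no independent support either. Of the 10 control nests that gave both a queen and a worker, the worker was higher in 9, at 1.87 to 3.47 times her queen in the 5 nests with a worker aged 10 days or less and at 0.540 to 1.61 times in the 5 nests with an older worker.

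Individuals of queen removal nests lay between control workers and queens in mean level, at 421 ± 234 CPM (SD, n = 58), with a median of 366 CPM and a range of 167 to 1328 CPM. They were above queens by 0.59 on the log2 scale (SE 0.18, adjusted p = 0.00734 by edgeR, 29.8% of genes called). This fit treated each wasp as independent, although many queen removal nests gave several wasps and some also gave a queen. It was not run with nest taken into account, so the p-value may be too small. The difference was 0.27 (SE 0.16, 95% interval -0.04 to 0.59) when only the wasps aged 13 days or more were kept. That value is given without a test, since level by age chose the gene. The comparison with queens was added after the data were seen, and it shares its queens with the comparison of castes. Level by age in these individuals also chose the gene, so the p-value of this comparison is no independent support.

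No call was made for queen removal itself. Queen removal individuals minus control workers gave -0.53 (SE 0.22, 95% interval -0.96 to -0.09, adjusted p = 0.231 by edgeR), where 0.259% of genes were called. With nest as a random effect in limma voom it was -0.31 (95% interval -0.77 to 0.15, adjusted p = 0.555). With age as a covariate the difference was 0.10 (SE 0.18, 95% interval -0.24 to 0.45, adjusted p = 0.796 by edgeR), and 2.58% of genes were called. Day 12 minus day 3 gave -0.38 (SE 0.19, adjusted p = 0.481 by edgeR, 0.287% of genes called), and -0.077 at equal age (SE 0.13, 95% interval -0.34 to 0.18, adjusted p = 0.910 by edgeR, 0.120% of genes called).

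**Figure D3:**
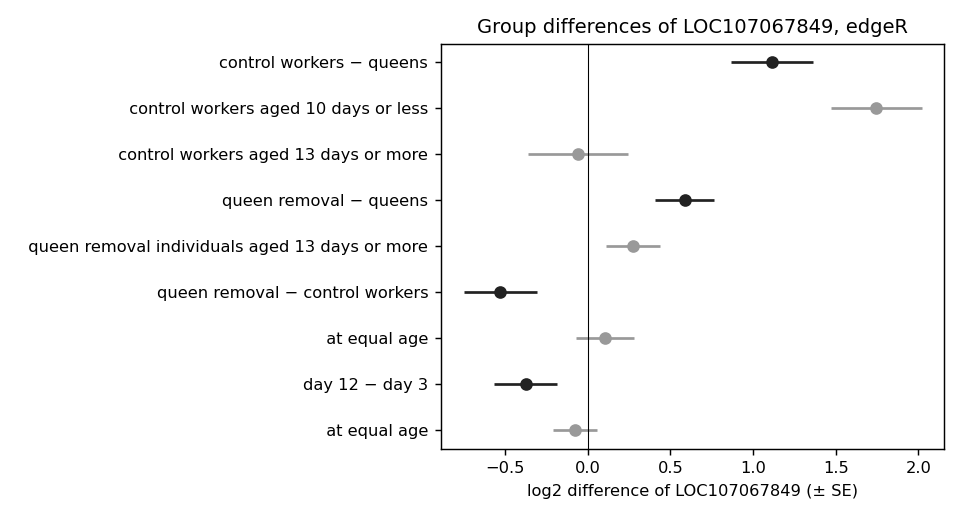
Log2 differences of LOC107067849 between groups from edgeR, as points with bars of 1 SE; black points are the comparisons of whole groups and grey points the same comparison at other ages or at equal age. The difference between control workers and queens is 1.11 in all wasps and -0.060 with workers aged 13 days or more, and those of queen removal and day move from -0.53 and -0.38 to 0.10 and -0.077 at equal age.

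Neither ovarian development nor dominance, the traits that mark a replacement queen, gave a call for the gene with age in the fit. Among the 58 queen removal individuals, with day and age as covariates, the log2 change per SD of ovarian index was 0.016 (SE 0.07, 95% interval -0.13 to 0.16, adjusted p = 1.00 by edgeR, 0.148% of genes called). Per SD of dominance rating it was -0.078 (SE 0.07, 95% interval -0.22 to 0.06, adjusted p = 1.00 by edgeR, 0.120% of genes called).

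The neighbouring gene Col4a1, which encodes the other collagen IV chain, followed LOC107067849 wasp by wasp. Its levels were 108 to 663 CPM in queens (median 287 CPM), 206 to 1928 CPM in control workers (median 509 CPM), 175 to 1551 CPM at day 3 (median 510 CPM) and, at day 12, 182 to 1095 CPM with a median of 409 CPM. The correlation of the log2 levels of both genes was 0.94 within queens (n = 26), 0.99 within control workers (n = 12), 0.99 at day 3 (n = 24) and 0.96 at day 12 (n = 34). The files do not say how reads shared by both genes were counted. Col4a1 fell with age in control workers by 1.32 per 10 days (SE 0.18, adjusted p = 0.00433 by edgeR), in a fit in which 1.48% of genes were called and 1.03% fell at the threshold of 0.1 used for this group. It fell by 0.73 at day 3 (SE 0.09, adjusted p = 7.4e-05 by edgeR, with 3.63% of genes called and 2.41% falling) and by 0.68 at day 12 (SE 0.15, adjusted p = 0.00947 by edgeR, with 2.69% called and 2.02% falling). Since both genes moved together in each library, this is no separate evidence on LOC107067849. The call was lost with nest as a block, where the slopes were -0.82 at day 3 (adjusted p = 0.0951) and -0.61 at day 12 (adjusted p = 0.196). It was also lost without the 3-day-old wasp at day 12 (-0.59, adjusted p = 0.201) and without the 3 youngest control workers (-1.003, adjusted p = 1.00), where edgeR called no gene and 336 of 10772 had an unadjusted p under 0.05.

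The balance of both genes differed slightly between queens and workers. The log2 ratio of LOC107067849 to Col4a1, which does not depend on the scaling of a library, was -0.063 ± 0.20 (SD, n = 26) in queens, -0.23 ± 0.14 (SD, n = 12) in control workers and -0.22 ± 0.17 (SD, n = 58) in queen removal individuals. It was below 0 in 16 of 26 queens and in 11 of 12 control workers. Control workers minus queens gave -0.17 (SE 0.06, p = 0.0163, adjusted p = 0.0326 over 4 comparisons, two-sided permutation test), and queen removal individuals minus queens gave -0.16 (SE 0.05, p = 0.000440, adjusted p = 0.00176, same test). When the queens were only the 12 taken from queen removal nests, the differences were -0.16 and -0.15, with adjusted p of 0.0667 and 0.0551 by the same test. Queen removal minus control workers gave 0.0064 (SE 0.05, adjusted p = 0.940), and day 12 minus day 3 gave 0.086 (SE 0.04, p = 0.0487, adjusted p = 0.0649). The permutations treated each wasp as independent, although a queen removal nest gave up to 5 wasps. The p-values of comparisons with queen removal individuals may therefore be too small, and the ratio was not tested with nest taken into account. Across the 70 workers the ratio changed by 0.039 per 10 days of age (SE 0.025).

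**Figure D4:**
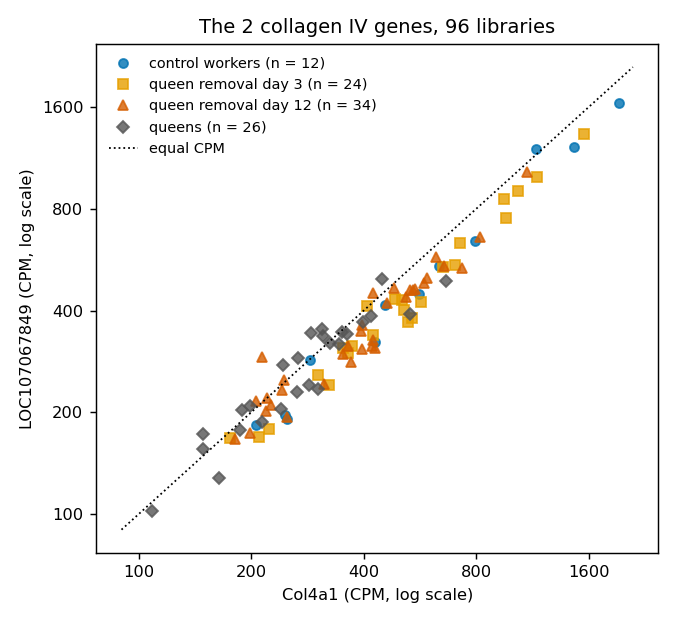
LOC107067849 against Col4a1 in the 96 libraries, both in CPM on log scales, with symbols for the 4 groups and a dotted line of equal CPM, which is not equality per length. The points form one narrow band, with youngest workers at its upper end (1642 and 1928 CPM in the highest), and queens lie nearer to the line than workers, at a mean log2 ratio of -0.063 against -0.23 in control workers.

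Few other genes of the basement membrane were called for age. Of the 12 genes of a basement membrane list, which holds Col4a1 but not LOC107067849, Col4a1 and SPARC fell with age in control workers (2 of 12, against 1.03% of all genes) and at day 3 (2 of 12, against 2.41%), and Col4a1 alone fell at day 12 (1 of 12, against 2.02%). No other member was called in these 3 fits. Col4a1 and SPARC were the genes most like LOC107067849 across libraries (r = 0.97 and 0.88 with group means removed). Their calls for age are therefore no separate evidence, and the counts are descriptions. The list's median slope was -0.30 in control workers, -0.02 at day 3 and -0.16 at day 12, with medians over all genes of 0.01, 0.00 and 0.00. SPARC, a secreted glycoprotein that binds collagen IV, fell by 0.88 per 10 days in control workers (SE 0.14, adjusted p = 0.0136 by edgeR) and by 0.50 at day 3 (SE 0.09, adjusted p = 0.00108 by edgeR). Its slope at day 12 was -0.23 (SE 0.12, adjusted p = 0.295 by edgeR), and the calls were lost without the 3 youngest control workers (-0.54, adjusted p = 1.00) and with nest as a block at day 3 (-0.62, adjusted p = 0.0951).

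Laminin, the other network former of the basement membrane, has its chains encoded here by LanA, wb, LanB1 and LanB2, whose slopes in control workers were 0.07, -0.27, -0.35 and -0.02, with adjusted p of 0.306 to 0.945 by edgeR. The nidogen gene Ndg, which links laminin to collagen IV, had -0.33 (SE 0.22, adjusted p = 0.535 by edgeR). The perlecan gene trol, a heparan sulfate proteoglycan, had -0.55 (SE 0.18, adjusted p = 0.172 by edgeR). The peroxidasin gene Pxn, whose product cross-links collagen IV, had -0.06 in the same fit, papilin (Ppn) -0.56, Mp, a collagen of the type XV and XVIII kind, -0.26, and thrombospondin (Tsp) -0.24, none of them called. At day 3 and day 12 these 10 genes had slopes between -0.25 and 0.17.

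**Figure D5:**
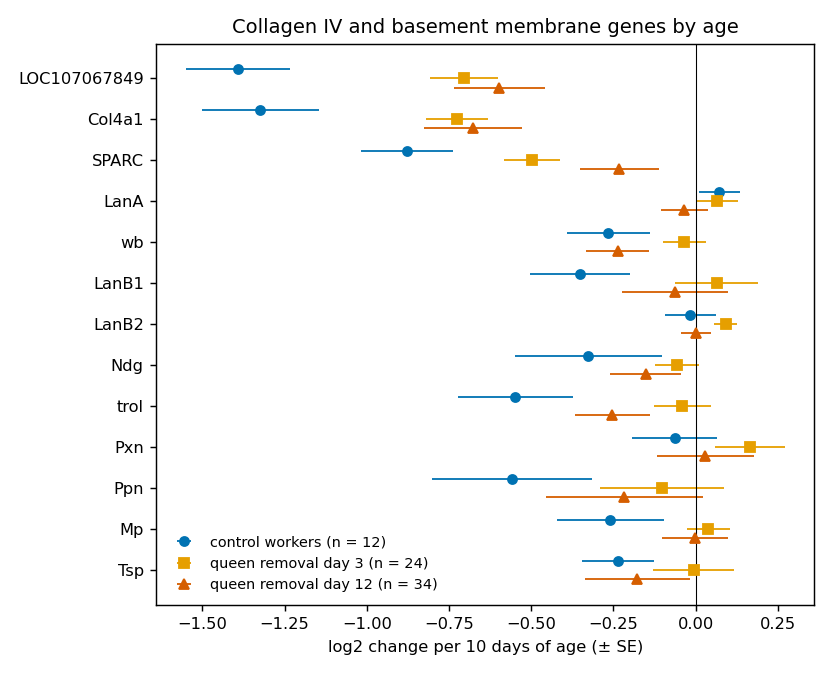
Log2 change per 10 days of age (points, bars of 1 SE) of LOC107067849 and the 12 basement membrane genes in control workers, queen removal day 3 and queen removal day 12. LOC107067849 and Col4a1 have slopes of -1.39 and -1.32 in control workers and SPARC -0.88, while the other 10 genes lie between -0.56 and 0.07.

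Between castes the basement membrane genes went different ways. Col4a1 was higher in control workers than in queens by 1.24 (SE 0.25, adjusted p = 0.000112 by edgeR) and SPARC by 0.63 (SE 0.19, adjusted p = 0.0106 by edgeR), whereas trol was lower by 0.59 (log2 difference -0.59, SE 0.18, adjusted p = 0.00963) and Tsp gave -0.75 (SE 0.22, adjusted p = 0.00779). Thus 2 of 12 were higher and 2 of 12 lower, against 11.1% and 11.7% of all genes, and the list's median was -0.08. The 2 higher genes are those most like LOC107067849, so they are no separate evidence. Tsp lost its call with a nest block in nests that gave both castes (-0.58, adjusted p = 0.0995) and with queens of queen removal nests only (-0.65, adjusted p = 0.0582), and both trol and Tsp lost theirs with control workers aged 10 days or less (-0.31 and -0.62, adjusted p = 0.372 and 0.150), all by edgeR. With control workers aged 13 days or more, Col4a1 was at 0.14 (adjusted p = 0.811) and SPARC at -0.03 (adjusted p = 0.959), both by edgeR. None of the 12 was called for queen removal, for queen removal at equal age or for either comparison of days.

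Of 12 genes of collagen processing and export, which modify, fold and ship the chains inside the cell, none was called for age in any of the 3 fits. They include PH4alphaEFB, a prolyl 4-hydroxylase subunit, with slopes of -0.20 in control workers, 0.07 at day 3 and -0.02 at day 12. Between castes 2 of the 12 were higher in control workers and 3 lower, against 11.1% and 11.7% of all genes, PH4alphaEFB being higher by 0.26 (SE 0.08, adjusted p = 0.0161 by edgeR) and Sec13, a coat protein of export vesicles, lower at -0.19 (SE 0.07, adjusted p = 0.0374 by edgeR). ERp60, a protein disulfide isomerase, and Sec24CD, another vesicle coat protein, had slopes of -0.12 and -0.20 in control workers and were not called.

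Among 17 matrix receptors and their partners none was called for age in control workers, 1 fell at day 3 and 2 fell at day 12, where 1.03%, 2.41% and 2.02% of all genes fell. These were parvin, an adaptor between integrins and actin, at -0.14 per 10 days at day 3 (SE 0.038, adjusted p = 0.0447 by edgeR) and -0.17 at day 12 (SE 0.041, adjusted p = 0.0155 by edgeR), and the heparan sulfate glypican dally at -0.37 at day 12 (SE 0.10, adjusted p = 0.0420 by edgeR). With nest as a block, edgeR called 1 gene in all at each of these days, and 1 gene at day 12 without the 3-day-old wasp. Called or not, 16 of the 17 had slopes below 0 in control workers, 13 at day 3 and 13 at day 12. The list's median slope was -0.13, -0.04 and -0.07 in the same order. The integrin alpha subunit gene if had slopes of -0.33, -0.17 and -0.10 in control workers, day 3 and day 12, none called, and the sarcoglycan Scgdelta was lower in control workers than in queens (-0.34, SE 0.07, adjusted p = 0.000184 by edgeR). No member of the 5 genes of matrix turnover was called for age. All 5 had slopes below 0 in control workers and at day 3, and 3 of 5 at day 12. The matrix metalloproteinase Mmp2 and its inhibitor Timp had slopes of -0.42 and -0.43 in control workers (adjusted p = 0.159 and 0.361 by edgeR), CtsL1, a cathepsin, had -0.18, and stl, an ADAMTS protease, had -0.03.

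Over the 96 libraries, with the mean of each group removed, the genes whose log2 level was most like that of LOC107067849 were Col4a1 (Pearson r = 0.97) and SPARC (r = 0.88), of 9713 genes with a mean of at least 1 CPM, whose r had a 5th percentile of -0.44 and a 95th of 0.49. Both kept the first and second rank when age was also removed among the 70 workers (r = 0.95 and 0.84), and within queens alone they ranked 1 and 3 (r = 0.94 and 0.83). These correlations share library, depth and tissue makeup and are descriptions. The next 8 genes serve energy metabolism. They were the ATP synthase subunits beta (ATPsynbeta, r = 0.80), gamma (ATPsyngamma, r = 0.79) and alpha (blw, r = 0.77), the mitochondrial channel gene LOC107068034 (voltage-dependent anion-selective channel-like, r = 0.80), the glycolytic enzyme enolase (Eno, r = 0.79), succinyl-CoA ligase (Scsalpha1, r = 0.77), and LOC107070468 and muc (r = 0.77 each), which encode a dehydrogenase and an acetyltransferase of pyruvate oxidation. With age removed among workers, their r was 0.50 to 0.64 and their ranks 34 to 355. Their slopes with age were -0.43 to -0.67 per 10 days in control workers, against -1.39 and -1.32 for the collagen IV pair, and are given without a test because the genes were chosen for their likeness.

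Of these 8 genes 3 were called between castes, where 11.1% of all genes were higher in control workers. ATPsyngamma (0.64, SE 0.15, adjusted p = 0.00125), Scsalpha1 (0.39, SE 0.11, adjusted p = 0.00606) and muc (0.32, SE 0.11, adjusted p = 0.0200) were higher in control workers than in queens, each by edgeR's test. The other 5 had log2 differences of 0.10 to 0.35 that did not pass (adjusted p 0.0881 to 0.602). These 8 genes were chosen for their likeness to LOC107067849, so they are no independent set and the count is a description. The 5 genes with the most opposed pattern were LOC107069635, an uncharacterized gene (r = -0.72), Orc3, a subunit of the origin recognition complex (r = -0.71), the serendipity-like LOC107071552, Not11, a subunit of the CCR4-NOT complex of mRNA decay, and the kinesin-like LOC107074690 (r = -0.67 each).

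Markers of cell types that could lie in or on a dissected brain were set beside the gene. With group means removed, the summed level of 5 glia markers had r = 0.77 with LOC107067849 over 96 libraries, and 0.55 without Gs2, the cytoplasmic glutamine synthetase that makes up most of that sum. These r include the shared course with age. With age also removed among the 70 workers, r was 0.48 for Gs2 (rank 452), 0.45 for repo, 0.45 for Eaat1, 0.36 for moody and 0.12 for loco. The glia sum was 4060 to 5704 CPM in the 7 workers aged 3 days or less and 1594 to 2893 CPM in the 26 aged 20 days or more, so that these groups did not overlap. The slopes of Gs2 with age were -0.66 per 10 days in control workers (SE 0.09), -0.53 at day 3 (SE 0.06) and -0.43 at day 12 (SE 0.08). They are given without a test, because Gs2 was named after its values were seen and its level was much like that of LOC107067849. No other glia marker was called in these 3 fits. All 5 glia markers had slopes below 0 in each of them. The list's median slope was -0.35 in control workers, -0.17 at day 3 and -0.17 at day 12. The slope of Gs2 was -0.28 at day 12 without the 3-day-old wasp and -0.48 in control workers without the 3 youngest. With nest as a block it was -0.43 at day 3 and -0.52 at day 12. With group means removed, the other sums had r of 0.33 for 7 fat body markers, 0.27 for 12 muscle markers, 0.00 for 5 neuron markers, -0.06 for 3 hemocyte markers (Hml, PPO and drpr) and -0.33 for 9 photoreceptor markers. Members of one list differed. Taken singly, fat body markers had r from 0.13 (Vgn) to 0.57 (apolpp). Among hemocyte markers Hml had -0.31, PPO -0.13 and drpr 0.49. Over all libraries the median was 208 CPM for drpr, 249 CPM for PPO and 60 CPM for Hml, so the sum of the 3 mixes unlike courses. Whether the drpr RNA of these brains came from hemocytes was not tested.

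The 3 hemocyte markers summed to 316 to 539 CPM in workers aged 3 days or less and 358 to 951 CPM in those aged 20 days or more, and the 7 fat body markers to 7081 to 25726 CPM and 4604 to 19293 CPM, with overlap in both. Among single fat body markers, the hexamerin genes HEX70b, Hex70a and Hex70c fell with age at day 3 (3 of 7, against 2.41% of all genes, list median -1.02 per 10 days) and HEX70b fell at day 12 (1 of 7, against 2.02%, list median -0.93), and none was called in control workers (list median -0.30). None of the hemocyte markers was at 0 in a library, and of the fat body markers HEX70b and Hex70c were at 0 in 32 and 48 libraries. Between castes no hemocyte marker was called, 4 of 7 fat body markers were higher and 1 lower in control workers, 1 of 5 glia markers (Gs2) was higher, 3 of 9 photoreceptor markers were higher, 2 of 5 neuron markers were lower, and 5 of 12 muscle markers were lower, where 11.1% of all genes were higher and 11.7% lower. Muscle markers summed to 3306 to 42823 CPM in queens and 1774 to 16835 CPM in control workers, and 9 of 12 were higher after queen removal at equal age, against 1.94% of all genes. The part of these tissues and cells in the levels of LOC107067849 was not tested.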

How the data were processed

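Ribosomal reads were discarded by the authors (SortMeRNA), the others trimmed (Trimmomatic, whose version differs between the sources) and the rest aligned to annotated transcripts (STAR 2.7) and counted (StringTie2). What was deposited is a table of raw, unscaled counts for each gene. Of 11335 rows, 194 repeated a gene ID and were summed; the row without a name (0.0216% to 0.0706% of counts) was left out. Genes were kept if a group's counts summed to more than 20 (10794 genes) and fitted with edgeR 4.0.16 in R 4.3.3 (TMM, quasi-likelihood test, Benjamini-Hochberg over all genes, threshold 0.05, or 0.1 for age in control workers, after the study), a method tested on simulated data. The group comparisons came from 1 fit with all 96 libraries in 3 groups (queen removal days together), days were compared in a fit of 4 groups, and comparisons at equal age used workers only. Confidence intervals are 1.96 SE either side. Log2 CPM used a prior count of 2. Ratios were tested with 100000 permutations (scipy 1.17.1). DESeq2 1.42.0 and limma 3.58.1 voom were alternatives. Ovarian index, dominance rating and nest of each wasp came from the study's source data; the first 2 were tested as predictors with day and age in the fit, nest served as a block and to compare nestmates, and none of their values is reported. Gene symbols are those of a RefSeq table of assembly Pdom_raw_medaka, in which 10144 of 11140 IDs were found and 4065 had a symbol; its coordinates were not used. Lists were counted by symbol, because product names were at hand only for 4399 IDs that the study chose partly on these samples.

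The gene, the lists and the tests were chosen with earlier results of these data known. Named genes were LOC107067849, the 12 basement membrane genes, up to 4 genes of smallest p for age in control workers from each of 3 other matrix lists, and the 10 genes most and 5 genes least like LOC107067849. Gs2 and the markers were named after their values were seen. Shared replicate numbers did not pair wasps: same-numbered deviations correlated over 0.1 in 2 of 12 pairs of queens and control workers. P-values measure the spread between wasps, and wasps of one nest are not independent.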

Additional observations from a re-analysis of the deposited data

How the results depend on the processing

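DESeq2, upper quartile scaling, no filter on low counts and a filter in every sample of a group kept the direction and the call of LOC107067849 in the 7 planned comparisons in which it was tested; the comparison of queen removal individuals with queens was not run under these settings. The difference between castes turned to -0.060 with control workers aged 13 days or more, queen removal minus control workers to 0.33 with workers of that age on both sides, the day at equal age to 0.017 with log2 of age, and the ovarian index to -0.086 with nest in place of day. The difference from queens was 0.27 with queen removal individuals aged 13 days or more. Slopes moved to -1.04 and -0.45 without the youngest control workers and without the 3-day-old wasp of day 12. SPARC turned to -0.027 between castes with workers aged 13 days or more. The ratio lost its calls against queens of queen removal nests alone (-0.16 and -0.15).

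With a replicate block the difference between castes was 0.81 (adjusted p = 0.0592, call lost), and genes called were 135 for queen removal and 9 for the day; the numbers pair no wasps by design.

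Counts of genes called moved with the tool, the filter, the block and who was included. Between castes (2461) they were 1368 with queens of queen removal nests, 1076 with control workers aged 13 days or more, 1623 with those aged 10 days or less and 1220 with a nest block. For queen removal (28) they were 176 with DESeq2, 0 with the stricter filter (1390 at an unadjusted p under 0.05), 2 with voom and 6 with workers aged 13 days or more. At equal age (278) voom gave 49. For the day (31) the stricter filter gave 11, and at equal age (13) there were 27 with DESeq2, 5 with that filter, 8 with log2 of age and 0 with voom (558 at an unadjusted p under 0.05). For age in control workers (160) DESeq2 gave 644 and leaving out the youngest 0. At day 3 (392) and day 12 (290) the nest block left 1 each, as did leaving out the 3-day-old wasp at day 12. For ovarian index (16) there were 30 with DESeq2 and 2 with the stricter filter, and for dominance (13) 5 with that filter. The cause of these shifts was not tested beyond the smaller number of wasps or genes in the settings named.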

Other observations

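The 14 queens of control nests had 128 to 495 CPM of LOC107067849 (median 330 CPM), and the 12 queens taken from queen removal nests had 102 to 488 CPM (median 238 CPM). These ranges overlapped, and the difference between them was not tested.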
